A study of Homo sapiens with 14 samples.

Results

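The treatment of s4U-labeled RNA with acrylonitrile was described here gene by gene, in 2 libraries of RNA that carried s4U and was treated with acrylonitrile (s4U-acrylonitrile-RNA) and 2 libraries of RNA that carried s4U and was not treated (s4U-RNA). The genes were those with at least 20 sequenced fragments in 2 or more of these 4 libraries. Of 57820 annotated genes in the deposited tables, 33422 had a fragment in any library of the experiment and 15777 met the rule. Among the 15777 genes, 13287 had 20 fragments in all 4 libraries, 1184 met the rule through both s4U-RNA libraries alone, 253 through both s4U-acrylonitrile-RNA libraries alone, 707 through both s4U-RNA libraries and 1 s4U-acrylonitrile-RNA library, 246 through both s4U-acrylonitrile-RNA libraries and 1 s4U-RNA library, and 100 through 1 library of each group. The second highest of the 4 counts was exactly 20 for 111 genes just inside the rule and exactly 19 for 121 genes just outside it. By annotation, 13104 genes were protein-coding, 747 antisense, 727 pseudogenes and 714 lincRNAs.

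4-Thiouridine (s4U) is a uridine analogue that cells take up and build into RNA as it is transcribed, so it marks RNA made after the nucleoside was added. Acrylonitrile is an electrophile that adds a cyanoethyl group to the sulfur of s4U, and the modified base is read as cytidine when the RNA is copied into cDNA. A fragment from labeled RNA therefore carries T-to-C mismatches to the genome after the treatment, while RNA that was already present before labeling, and RNA with few uridines, carries few or none.

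All libraries came from poly(A) RNA of HEK293T cells, a line derived from human embryonic kidney that carries the SV40 large T antigen. The s4U-RNA and s4U-acrylonitrile-RNA groups had 24 h of s4U in the medium, and the RNA was fragmented before the chemical step. The treatment labels give 50 µM s4U for s4U-RNA and 500 µM for s4U-acrylonitrile-RNA, while the extraction protocol gives 50 µM for both. If the treatment labels hold, the dose of s4U and the acrylonitrile treatment cannot be told apart in the labeled comparison. Cells without s4U gave the background, without (Con-RNA) and with acrylonitrile (Con-acrylonitrile-RNA), 2 libraries each. No label says whether replicates were separate cultures, so the p-values measure only the spread between libraries, which may be technical.

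The 4 s4U libraries held between 10841732 and 17228999 fragments, and the 4 libraries without s4U between 6074118 and 13102014. In annotated genes lay 85.8% and 88.3% of the fragments of s4U-RNA but 70.7% and 68.4% of those of s4U-acrylonitrile-RNA. The s4U-RNA libraries agreed less well with each other than any other pair: the correlation of their log counts across the 15777 genes was 0.974, against 0.986 to 0.996 in the other groups. In s4U-RNA replicate 1 short and GC-poor transcripts were higher than in replicate 2. Spearman's rho of the log2 ratio was −0.20 with transcript length and −0.22 with GC content over 15293 genes. Between the s4U-acrylonitrile-RNA replicates it was 0.03 with length and −0.35 with GC content. Which replicate of a pair was unusual cannot be told. The results that s4U-RNA replicate 1 moved most are given with and without it. Of 6 markers of the HEK293 lineage all were detected and 5 were among the 15777 genes. Levels are given as CPM, counts scaled to the size of the library, and these markers summed to 556 to 855 in s4U-RNA and 3302 to 3804 in s4U-acrylonitrile-RNA. Blood markers reached at most 3.19 in sum, with PTPRC, CD3E and HBB at 0 in all 4 libraries, and those of mature kidney at most 5.54, with UMOD at 0. No fragment was assigned to any of the 13 mitochondrially encoded mRNAs in the 8 libraries.

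Fragments that carried 1 mismatch or more are called marked, and over a whole library their share was 67.3% and 65.9% in s4U-acrylonitrile-RNA and 14.0% and 11.0% in s4U-RNA. Both treated libraries lay far above both untreated libraries. The mean rose by 54.1 points, from 12.5% ± 2.11 to 66.6% ± 0.974 (SD, n = 2 each). The exact two-sided permutation test gave p = 0.333, the smallest that 2 libraries against 2 allow. The depth behind each share makes counting error small: the 95% Wilson interval of the first treated library ran from 67.26% to 67.31% and covers counting error only. Without s4U, the marked share was 9.18% and 8.96% in Con-RNA and 13.7% and 14.4% in Con-acrylonitrile-RNA. Within annotated genes these backgrounds were close to each other, at 7.48% ± 0.189 and 7.65% ± 0.231, whereas the share was 11.5% ± 2.004 in s4U-RNA and 76.9% ± 0.492 in s4U-acrylonitrile-RNA (SD, n = 2 each).

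The number of mismatches per fragment changed as well as the share. Fragments with at least 2 mismatches made up 54.0% and 50.9% of the libraries of s4U-acrylonitrile-RNA and 3.00% and 1.92% of those of s4U-RNA. Marked fragments carried 3.40 ± 0.232 mismatches on average with acrylonitrile and 1.33 ± 0.0505 without it (SD, n = 2 each). In s4U-acrylonitrile-RNA replicate 1, 41.4% of the fragments had at least 3 mismatches, against 37.1% in replicate 2. Replicate 1 was the higher of the pair in each of these 3 measures, and the highest number seen in 1 fragment was 25.

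**Figure D1:**
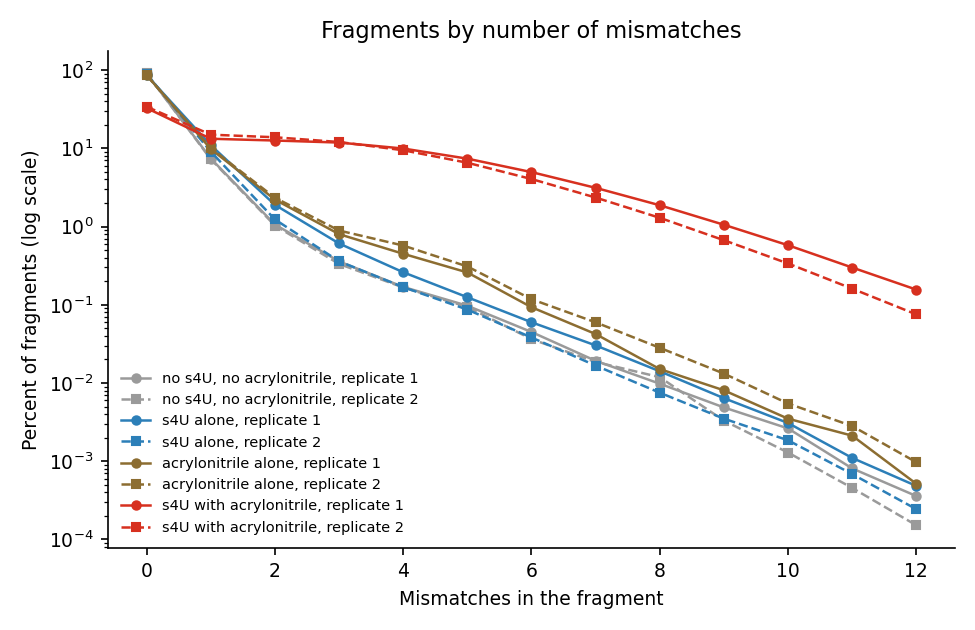
Percent of all fragments of a library (vertical axis, log scale) by the number of mismatches in the fragment (horizontal axis), with 1 line for each of the 8 libraries. The s4U-acrylonitrile-RNA libraries fall slowly with the number of mismatches, and 37.1% and 41.4% of their fragments have at least 3, while the 6 other libraries fall steeply.

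Gene by gene, the marked share rose in nearly every gene that could be tested. Among the 13287 genes with 20 fragments in all 4 libraries, the median gene went from 11.4% marked in s4U-RNA to 91.7% in s4U-acrylonitrile-RNA, a median gain of 79.7 points. The share passed edgeR's quasi-likelihood test at a Benjamini-Hochberg adjusted p under 0.05 as higher in 13260 genes and as lower in 3 (99.8% and 0.0226% of all genes tested, which are the same genes), and 24 did not pass. In 13270 genes both treated libraries lay above both untreated libraries. The gain was over 50 points in 12337 genes and under 10 points in 31. The typical SD between the 2 libraries was 2.02 points in s4U-RNA and 1.68 points in s4U-acrylonitrile-RNA. It had a direction in common among genes: replicate 1 was the higher library for 11458 genes in s4U-RNA and for 9442 in s4U-acrylonitrile-RNA.

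With at least 2 mismatches as the mark, the median gene went from 1.96% to 78.7%, and 13271 genes passed as higher and 1 as lower (99.9% and 0.00753% of genes tested). Of the marked fragments of a gene, a median of 86.5% carried at least 2 mismatches in s4U-acrylonitrile-RNA and 17.2% in s4U-RNA. The gain in marked share was also compared with the gain that acrylonitrile gave in RNA without s4U. Of the 11858 genes with 20 fragments in all 8 libraries, 11817 had a larger gain in labeled RNA (99.7%) and none a smaller one by edgeR's quasi-likelihood test, with 11817 at an unadjusted p under 0.05.

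**Figure D2:**
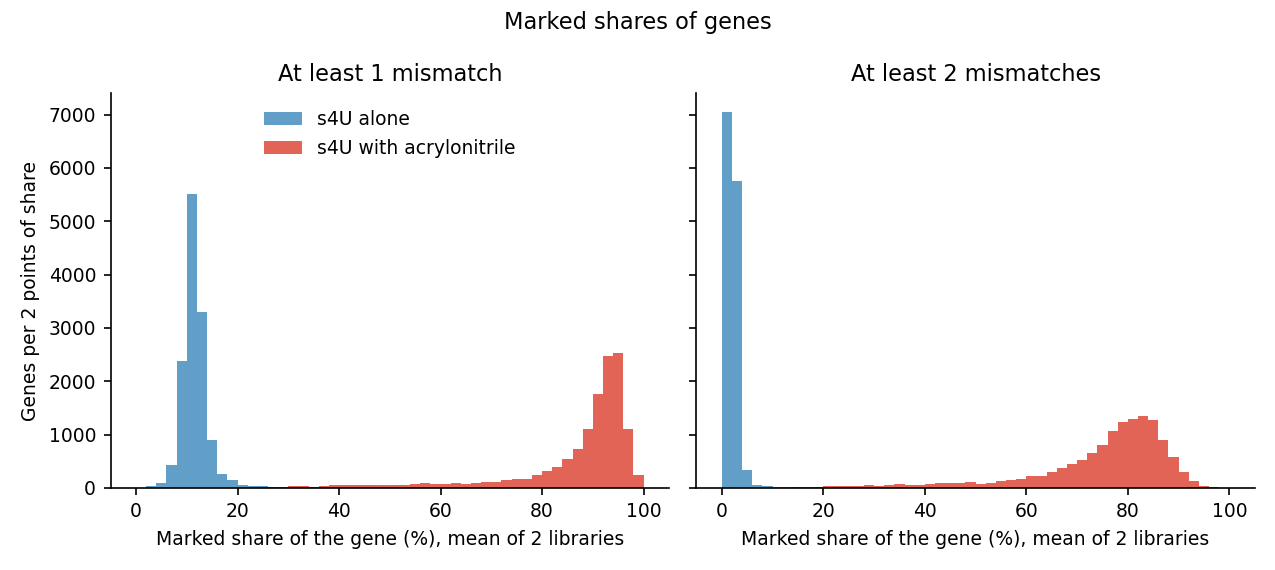
Number of genes (vertical axis) by marked share in percent (horizontal axis, bins of 2 points), for at least 1 mismatch on the left and at least 2 on the right. Each gene is the mean of 2 libraries, in blue for s4U-RNA and red for s4U-acrylonitrile-RNA. The 13287 genes form separate peaks, with medians of 11.4% and 91.7% for at least 1 mismatch, and the red peak has a long tail to low shares.

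Of the genes that the study named in this experiment, CCND1 and EIF1 are given here and the long-lived transcripts with the lists. CCND1, which encodes cyclin D1, had 12.1% and 9.32% marked fragments in s4U-RNA and 86.9% and 83.7% in s4U-acrylonitrile-RNA. EIF1, a translation initiation factor, had 17.0% and 12.5% in s4U-RNA and 95.2% and 92.8% in s4U-acrylonitrile-RNA. The groups did not overlap in either gene, and CCND1 lay below and EIF1 above the median gene. The 8 highest shares among the 8564 genes with 100 fragments in each of the 4 libraries lay between 98.7% and 99.2%, and belonged to ALLC, OVGP1, the DNA repair nuclease gene DCLRE1B, MSANTD4, the cytokine receptor gene IL10RB, RP5-884C9.2, RP11-356J5.12 and the mitotic kinesin gene KIF20A. In KIF20A the libraries gave 99.05% and 98.4% with acrylonitrile and 11.6% and 9.56% without it.

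The BCL-2 family, regulators of apoptosis, was also marked nearly throughout. All 16 members measured had a higher share with acrylonitrile, with a median of 92.3% and a range from 73.2% to 96.9%, beside 91.7% for all genes. MCL1, an antiapoptotic member, had 95.4% and 93.6% marked fragments against 11.99% and 10.2%. The lowest member was BAD, a proapoptotic one, at 73.2% and 73.1% against 11.1% and 7.63%. The family was one that the study described on these samples, so its level is not independent evidence.

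The 8 lowest treated shares among the same 8564 genes reached up to 19.9%. LAMA1, a laminin chain of basement membranes (chr18:6941743-7117813), had 17.4% and 16.2% marked fragments in s4U-acrylonitrile-RNA and 7.07% and 8.15% in s4U-RNA. PCSK1N, an inhibitor of a prohormone convertase (chrX:48689504-48694035), had the lowest mean of these 8564 genes, with 16.6% and 15.9% against 16.4% and 3.88%. One untreated library of PCSK1N thus reached the treated level, and the test still called the share higher (edgeR's quasi-likelihood test, adjusted p = 0.0015). The remaining 6 of the 8 lowest were PITRM1 (17.2%), a mitochondrial peptidase gene, INTS1 (17.4%), a subunit of the Integrator complex, GAMT (18.2%), an enzyme of creatine synthesis, CST3 (19.02%), the secreted protease inhibitor cystatin C, MXRA7 (19.4%) and FN1 (19.9%), fibronectin. Each of these 6 had between 5.95% and 9.94% in s4U-RNA, and treated and untreated libraries did not overlap in any of them.

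Gene lists separated by their treated share and hardly at all by their untreated share. The median of a list ran from 8.90% to 12.4% in s4U-RNA for the 25 lists with at least 6 genes of sufficient depth, but from 42.1% to 94.4% in s4U-acrylonitrile-RNA. At the upper end stood the ZNF zinc finger regulators (median 94.4%, 345 genes), the mitosis and spindle genes (94.2%, 65 genes), the HOX patterning genes (93.9%, 35 genes) and the immediate early and other short-lived regulators (92.8%, 53 genes). Among mitosis and spindle genes the lowest share was that of BIRC5, the apoptosis inhibitor survivin, at 80.6%. No short-lived regulator with 20 fragments in all 4 libraries was below 83.5%, the value of HES4.

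Below the median of all genes were the housekeeping lists. The 79 cytosolic ribosomal protein genes had a median of 49.2%, from RPSA at 21.1% and RPL21 at 22.3% to RPL36AL at 90.5%. In RPSA the 4 libraries gave 11.8% and 8.69% without and 20.5% and 21.7% with acrylonitrile. The 17 glycolytic enzyme genes had a median of 51.1%, with PFKL, the liver-type phosphofructokinase, at 33.9%, GAPDH at 46.3% and HK2, an inducible hexokinase, at 95.6%. The nuclear genes of oxidative phosphorylation had a median of 62.5%, from NDUFV1 (29.3%), a complex I subunit, to UQCRFS1 (94.1%), the Rieske iron-sulfur protein of complex III.

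The list of extracellular matrix and secreted proteins had a median of 42.2% over 32 genes. Collagens and laminins lay at its lower end, with COL18A1 at 25.1%, COL4A2 at 26.7% and LAMA5 at 29.2%, while FBN1, fibrillin, reached 92.1% in the same list. The 33 lysosomal genes had a median of 60.6%, with MAN2B1, a lysosomal mannosidase, at 20.6% and SGSH, a sulfatase, at 97.0%. Transcripts of the long-lived list, 6 in all, had a median of 42.1%, from FLNA (26.1%), the actin crosslinker filamin A, through PRDX5 (32.8%), CRTAP (37.7%), MSN (46.6%) and MYH9 (59.8%) to APLP2 (62.2%). The study took these 6 transcripts as long-lived from earlier work in human cells. It described them on these same samples, so their place here is not an independent observation. DNA repair genes had a high median (92.6%, 85 genes) but held PRKDC, the catalytic subunit of the DNA-dependent protein kinase, at 29.4%.

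**Figure D3:**
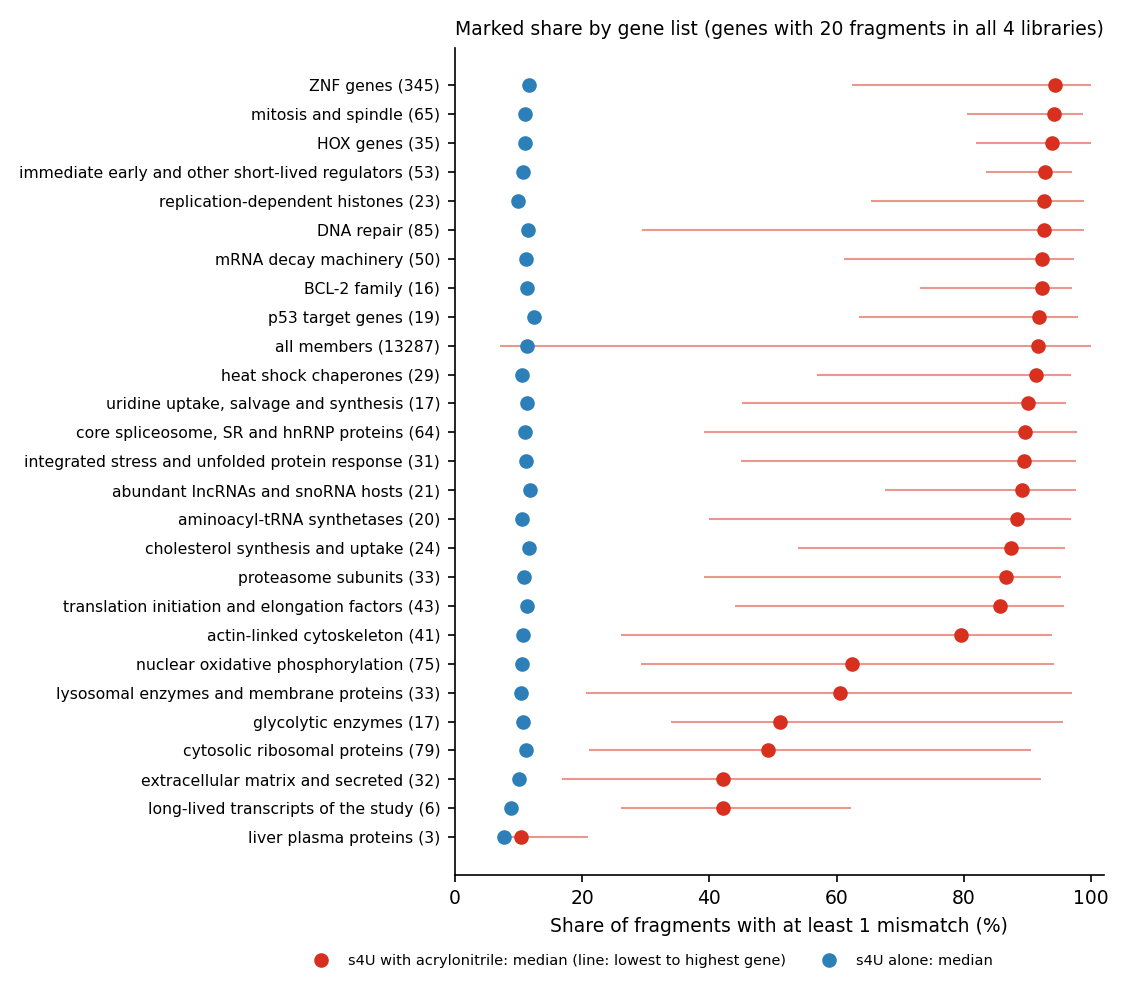
Marked share in percent (horizontal axis) for each gene list (vertical axis, with the number of genes in brackets). Red points are list medians in s4U-acrylonitrile-RNA with a line from the lowest to the highest gene, and blue points list medians in s4U-RNA. Untreated medians of the lists of 6 or more genes lie between 8.90% and 12.4%, while treated medians of those lists spread from 42.1% to 94.4%.

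A few genes had high marked shares without acrylonitrile, and the examples given here were high without s4U too. Only 97 of 13287 genes had a mean above 30% in s4U-RNA. In TUBBP2, a tubulin pseudogene, the share was 94.4% and 88.9% in s4U-RNA, 82.3% and 83.0% in Con-RNA, and 95.6% and 95.3% in s4U-acrylonitrile-RNA. POLR2L, a small subunit shared by RNA polymerases, had 90.02% and 62.2% in s4U-RNA, 59.9% and 61.3% in Con-RNA, and 76.5% and 76.0% in s4U-acrylonitrile-RNA. The higher s4U-RNA value of POLR2L was in replicate 1. With at least 2 mismatches as the mark, POLR2L passed as higher with acrylonitrile (edgeR's quasi-likelihood test, adjusted p = 1.4e-17). HFM1, a meiotic helicase gene, had between 18.1% and 21.8% in all 8 libraries, and its share did not pass the test between treated and untreated labeled RNA (edgeR's quasi-likelihood test, adjusted p = 0.91). The tables do not name the type of mismatch, and its part in these shares was not tested.

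The 3 genes whose marked share passed as lower with acrylonitrile were of this kind. ANKRD30BL had 100% and 97.8% in s4U-RNA and 94.4% and 90.2% in s4U-acrylonitrile-RNA, beside 96.9% and 98.7% in Con-RNA. MTRNR2L12, a nuclear copy of mitochondrial ribosomal RNA, had 100% and 98.2% against 97.4% and 95.1%. SC22CB-1E7.1, a pseudogene, had 87.3% and 80.1% against 77.6% and 76.7%, beside 53.9% and 59.8% in Con-RNA. Untreated libraries lay above treated ones in each of the 3, by a mean of 6.59, 2.91 and 6.56 points in that order. With at least 2 mismatches as the mark, only ANKRD30BL passed as lower (edgeR's quasi-likelihood test, adjusted p = 0.0008). By that mark SC22CB-1E7.1 passed as higher (same test, adjusted p = 0.00196) and MTRNR2L12 did not pass (adjusted p = 0.080). Only 1 gene was called lower without s4U-RNA replicate 1 or without s4U-acrylonitrile-RNA replicate 2, and 4 without s4U-RNA replicate 2 beside 3 in all libraries.

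The mRNAs of liver plasma proteins, kept as markers of a cell type other than kidney, stood apart from the other lists. Of 16 listed genes 5 met the rule, and 3 had 20 fragments in all 4 libraries. ALB, serum albumin, had 9.63% and 11.1% marked fragments in s4U-acrylonitrile-RNA, 8.60% and 1.43% in s4U-RNA, and 11.8% and 5.88% in Con-RNA. APOB, the apolipoprotein of low density lipoprotein, had 6.06% and 8.11% against 2.86% and 12.5%. TF, transferrin, had 25% and 16.9% against 2.44% and 16.7%, and 2.70% and 3.23% in Con-RNA. None of the 3 passed the test of the share (edgeR's quasi-likelihood test, adjusted p = 0.084 for ALB, 0.90 for APOB and 0.088 for TF), and TF passed as higher with at least 2 mismatches as the mark (adjusted p = 0.00023). ALB had 135 and 217 fragments in s4U-acrylonitrile-RNA. The summed level of 5 liver markers was 6.17 to 9.88 CPM in s4U-RNA and 23.0 to 46.8 in s4U-acrylonitrile-RNA. The source of these fragments was not tested.

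The fragment totals of genes, with all fragments counted whether marked or not, also changed with the treatment. Of the 15777 genes, 5121 had higher and 6267 lower totals relative to the library in s4U-acrylonitrile-RNA than in s4U-RNA (edgeR's quasi-likelihood test after TMM scaling, adjusted p under 0.05), where 31% and 34.1% of the 18914 genes tested passed in these directions. A change over 2-fold was seen in 3131 genes upward and 3778 downward (20.4% and 20.9% of all tested). The rule on fragments fixed part of these counts: the 253 genes that met it through the treated libraries alone were all higher, and of the 1184 that met it through the untreated libraries alone 714 were lower and none higher. In the 14317 genes with 20 fragments in both Con-RNA libraries, a subset taken after seeing the data from libraries outside this comparison, 4615 were higher and 5878 lower (32.2% and 41.1%). Both treated libraries lay above both untreated ones for 5986 genes and below them for 7349. The median log2 change of the 15777 genes was −0.17. Without composition scaling it moved by −0.29, and 3903 genes were higher and 7591 lower, so that 34.0% of calls in place of 44.97% were upward.

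Most of the change in totals was seen without s4U as well. Acrylonitrile on unlabeled RNA gave 4831 of the 15777 genes higher and 5451 lower totals (29.1% and 30.7% of all tested). Of the genes called higher in labeled RNA, 80.8% were called higher in unlabeled RNA, which is 85.6% of the latter. Of those called lower in labeled RNA, 75.8% were called lower in unlabeled RNA, which is 87.1% of the latter. The labeled and unlabeled comparisons share no library.

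The totals changed along with the base composition of the transcript. Over 12984 genes with 20 fragments in all 4 libraries and a reference transcript, the log2 change had a Spearman's rho of 0.75 with GC content and −0.71 with uridine content in labeled RNA, and 0.73 and −0.67 in unlabeled RNA. The points share libraries and genes, and GC and uridine content are themselves related, so these are descriptions. In genes below 40% GC the median log2 change was −1.15, with 90 of 2540 genes higher and 2030 lower. At 65% GC or more it was 1.95, with 525 of 546 genes higher and 3 lower. Unlabeled RNA gave medians of −1.14 and 1.70 in the same bins. With offsets that take out the relation to GC content in each library, 3475 genes were higher and 3816 lower, and the bin medians lay between −0.13 and 0.12.

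**Figure D4:**
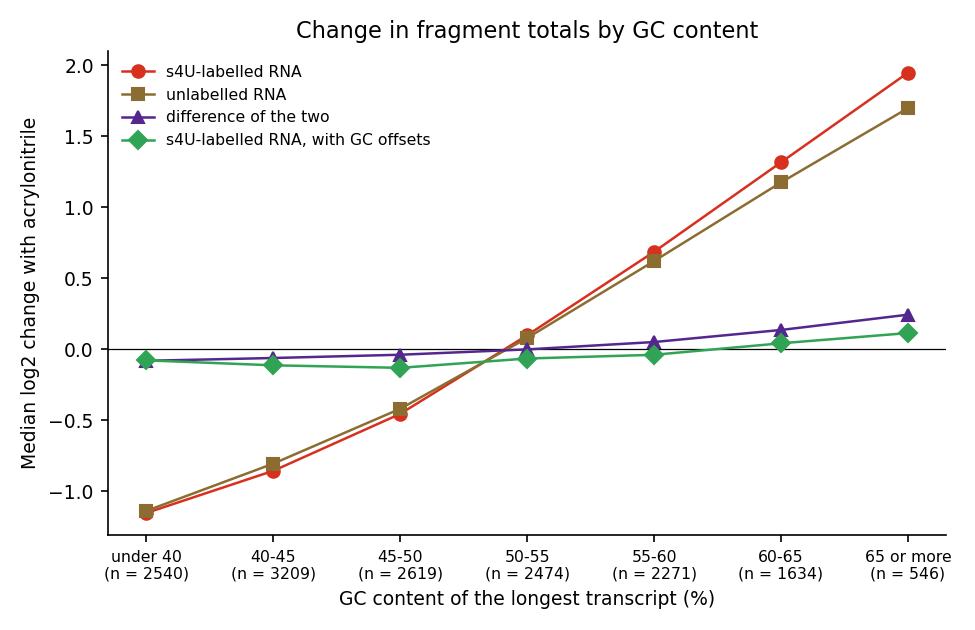
Median log2 change in fragment totals with acrylonitrile (vertical axis) by GC content of the longest transcript in percent (horizontal axis, with the number of genes per bin). Points are shown for s4U-labeled RNA, unlabeled RNA, their difference, and labeled RNA after GC offsets. The labeled medians climb from −1.15 to 1.95 and the unlabeled ones from −1.14 to 1.70, while the difference stays between −0.08 and 0.24.

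Counts in gene lists are read beside the 31% higher and 34.1% lower of all genes tested. Of 35 HOX genes 31 rose and none fell, with a median log2 change of 0.94 at a median GC content of 54.3%. Of 59 short-lived regulators 42 rose and 2 fell (median 0.92), among them the transcription factor gene CEBPD (log2 change 3.44) and the synaptic response gene ARC (3.34), while KLF6, another transcription factor gene, fell by 0.90. The extracellular matrix list had 24 of 32 genes higher and 5 lower (median 1.09), with COL18A1 at 2.99 and LAMA5 at 2.83. With GC offsets, 22 of 35 HOX genes, 29 of 59 short-lived regulators and 23 of 32 matrix genes were higher, beside 3475 of 15293 genes with a reference transcript, and their medians were 0.53, 0.50 and 0.77.

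Lists of GC-poor genes moved the other way. Mitosis and spindle genes had 13 of 65 higher and 45 lower (median −0.77, median GC content 43.9%), with the spindle checkpoint kinase TTK at −2.36 and the kinesin KIF18A at −2.27. DNA repair genes had 16 of 88 higher and 56 lower (median −0.90), from FANCL at −2.60 to the helicase RECQL4 at 2.26. ZNF genes had 76 of 386 higher and 232 lower. Of 21 abundant lncRNAs and snoRNA host genes 19 fell and 1 rose, SNHG7, and SNHG1 fell by 3.07 on the log2 scale. With GC offsets 11 mitosis genes were higher and 23 lower, 11 DNA repair genes higher and 30 lower, and 14 of the 21 noncoding genes lower.

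The housekeeping lists were mixed. Ribosomal protein genes had 24 of 80 higher (30%, near the 31% of all genes) and 12 lower (15%, beside 34.1% of all genes). Their median was 0.06, a size within the −0.29 by which composition scaling moves the median of all genes. RPL13 was at 2.14 and RPL36AL at −1.81. With GC offsets 28 of 79 were higher and 1 lower (median 0.27), beside 3475 and 3816 of 15293 genes. RPL36AL had 145 and 50.8 CPM in s4U-RNA, with replicate 1 the higher. Nuclear genes of oxidative phosphorylation had 11 of 76 higher and 39 lower (median −0.70), from UQCRB at −2.61 to ATP5D at 2.59. Proteasome genes had 5 of 33 higher and 22 lower (median −0.68). Of the 17 glycolytic genes 8 were higher, such as GAPDH at 1.54, and 3 lower, such as LDHA at −1.79. The 6 long-lived transcripts had 4 higher, FLNA, MYH9, CRTAP and MSN, and 2 that did not pass, APLP2 at 0.17 and PRDX5 at 0.33. Without s4U-RNA replicate 1, APLP2 was at 0.23 and PRDX5 at 1.12. In the BCL-2 family 7 of 16 rose and 3 fell (median 0.28), with BBC3 at 1.98 and BCL2L11 at −1.14. With GC offsets 4 of the family were higher and 5 lower (median −0.19). BBC3 was then at −0.14 and BAD, at 1.48 before the offsets, at −0.28.

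The largest falls among well covered genes were in protein-coding genes and in noncoding transcripts. UTP15, a factor of ribosomal RNA processing (chr5:72861268-72877794, 38.6% GC), had 34.6 and 26.8 CPM in s4U-RNA and 3.14 and 2.68 in s4U-acrylonitrile-RNA. The groups were far apart, and the total was 10.4-fold lower (log2 −3.38 ± 0.22 SE, edgeR's quasi-likelihood test, adjusted p = 3.4e-06). EIF4A2, an RNA helicase of translation initiation (chr3:186500994-186507689), had 415 and 252 against 36.2 and 30.7 CPM, a 9.95-fold fall. RCHY1, a ubiquitin ligase gene, fell by 3.32 on the log2 scale, and the overlapping transcript RP11-156E6.1 and the antisense transcripts RP5-1074L1.4 and RP11-372K14.2 fell by 6.35, 5.37 and 3.71 on the log2 scale. With GC offsets the changes were smaller, −2.36 for UTP15 and −2.29 for EIF4A2 beside −3.31 for the latter without them. In unlabeled RNA UTP15 changed by −2.54, EIF4A2 by −2.33 and RCHY1 by −2.31.

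Several of the large falls rested in part on s4U-RNA replicate 1. ERH, a small nuclear protein gene, had 512 and 115 CPM in s4U-RNA and 29.8 and 25.5 in s4U-acrylonitrile-RNA. SEC61G, a subunit of the protein translocation channel, had 157 and 29.99 against 10.5 and 8.56, and the small Cajal body RNA SCARNA7 had 29.2 and 2.99 against 0.262 and 0.839. Replicate 1 was the higher untreated library in all 3, by the widest margin in SCARNA7. SNORD3A, the U3 small nucleolar RNA, had 2253 and 179 against 206 and 144. With all libraries the log2 changes were −3.50 for ERH, −3.28 for SEC61G, −4.90 for SCARNA7 and −2.80 for SNORD3A. Without s4U-RNA replicate 1 they were −2.05, −1.65, −2.51 and −0.03 in the same order, and SNORD3A no longer passed the test (edgeR's quasi-likelihood test, adjusted p = 0.855). UTP15 and EIF4A2 changed by −3.19 and −2.91 without this library.

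The largest rises among well covered genes were mostly pseudogenes. RPS2P46, a processed copy of the ribosomal protein gene RPS2 (chr17:19349246-19350169), had 3.21 and 3.30 CPM in s4U-RNA and 98.5 and 120 in s4U-acrylonitrile-RNA. The total was 33.3-fold higher (log2 5.06 ± 0.23 SE, edgeR's quasi-likelihood test, adjusted p = 2.3e-06), while acrylonitrile on unlabeled RNA changed it by 0.73. MTND2P28, a nuclear copy of the mitochondrial gene MT-ND2 (chr1:565020-566063), had 6.82 and 3.93 against 153 and 86.1, a 22.5-fold rise beside 0.10 on the log2 scale in unlabeled RNA. RNPS1P1, a copy of the splicing factor gene RNPS1, had 0.862 and 1.31 against 34.3 and 33.9. RPL35P5, also a pseudogene, had 0 and 1 fragments in s4U-RNA and 209 and 217 in s4U-acrylonitrile-RNA. AC022210.2, another one, had 1 and 0 against 210 and 192. RPL35P5 and AC022210.2 met the rule on fragments through the treated libraries alone, so their direction was fixed by it.

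The remaining large rises were AC007969.5 and RP11-632C17__A.1, both pseudogenes (log2 5.02 and 4.60), MIR3648 (4.93), and 2 genes of pseudoautosomal region 1, ZBED1 (4.71) and AKAP17A (4.52). MIR3648 changed by 3.44 in unlabeled RNA, and with GC offsets by 1.1802 in labeled RNA, where it no longer passed (edgeR's quasi-likelihood test, adjusted p = 0.077). The pseudoautosomal region is present in near-identical form on the X and Y chromosomes. The 10 protein-coding genes of it that met the rule had higher totals, beside 31% of all genes tested, but ZBED1 and PPP2R3B met the rule through the treated libraries alone. In unlabeled RNA 8 of the 10 were higher, and their median GC content was 59.01%. With GC offsets all 10 were still higher in labeled RNA. Their median log2 change was 3.27 in labeled RNA, 2.45 there with GC offsets, and 1.25 in unlabeled RNA. SLC25A6, an ADP/ATP carrier of mitochondria, had 132 and 115 fragments in s4U-RNA and 1032 and 748 in s4U-acrylonitrile-RNA. Values of pseudogenes and of this region are uncertain, because only fragments with a unique alignment were kept and their reads can be shared with near-identical copies. The region was singled out after its values were seen.

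The sequences of such copies were compared with their parent genes in GRCh37, since a T in the parent that is C in the copy is the same kind of difference as a converted s4U. Of the 727 pseudogenes, 266 could be aligned to the coding sequence of a parent by name. Of the 266, 69 met the rule on fragments through the treated libraries alone and 25 through the untreated libraries alone, so changes are counted in the 127 copies with 20 fragments in both Con-RNA libraries. Of these 61 rose and 31 fell, with a median log2 change of 0.52. Coding stretches of 30 bases are shown for copies among those with large changes, on the strand of the gene. Capitals mark the bases that are T in the parent and C in the copy. The stretches were chosen for these differences, which are rarer over the whole alignment. Over the whole alignment there were 0.11 per 100 bases in RPS2P46, 0.38 in ATF4P3 and 1.16 in MTND4P12. The opposite difference, C in the parent and T in the copy, was more common in all of these. It was seen 2, 5 and 19 times in the same order, beside 1, 4 and 16 T-to-C differences. Other differences numbered 8, 17 and 23. Over the 266 copies the median was 3 T-to-C and 4 C-to-T differences. Stretches of MTND2P28 and RNPS1P1 chosen alike held only 1 T-to-C difference each, and 37 of the 266 copies had none. RPS2P46 is 98.7% identical to RPS2 over 879 bases, with 1 such difference (RPS2 exon 5, chr16:2012881-2012910, minus strand, and chr17:19349760-19349789, minus strand).
RPS2: gcatttgttgctatcggggactacaaTggc
RPS2P46: gcatttgttgctatcggggactacaaCggc

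ATF4P3 is a copy of ATF4, a transcription factor of the stress response, 97.5% identical over 1053 bases with 4 T-to-C differences, of which 2 lie in the stretch shown (ATF4 exon 3, chr22:39918446-39918475, plus strand, and chr17:74221964-74221993, minus strand). Its totals rose by 4.44 on the log2 scale.
ATF4: aagagggcggagcaggaggctctTactggT
ATF4P3: aagagggcggagcaggaggctctCactggC

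MTND4P12 is a nuclear copy of MT-ND4, a subunit of mitochondrial complex I, 95.8% identical over 1376 bases with 16 T-to-C differences, 3 of them in the stretch shown (chrM:10856-10885, plus strand, and chr5:134263601-134263630, minus strand). Its totals rose by 2.94 on the log2 scale.
MT-ND4: attattagcaTcatcccTctactatttttT
MTND4P12: attattagcaCcatcccCctactatttttC

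The change in totals was lower in copies with more T-to-C differences. Among the 127 copies, the 18 with none had a median log2 change in totals of 0.92, the 61 with 1 to 4 had 0.74, the 22 with 5 to 9 had 0.14, and the 26 with 10 or more had −0.08. Spearman's rho between the change and the number of T-to-C differences was −0.25 across the 127 copies. The T-to-C differences share the total divergence from the parent, so their order cannot be told apart from that of divergence. The part of misplaced alignments in the values was not tested.

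The effect of acrylonitrile on totals was compared directly between labeled and unlabeled RNA. Of the 15777 genes, 232 had a higher and 67 a lower change in labeled RNA (edgeR's quasi-likelihood test of the difference, adjusted p under 0.05), where 1.28% and 0.354% of the 18914 genes tested passed, 1.64% in either direction. The counts hung on single libraries: without either Con-RNA library 32 to 40 genes were higher and 2 to 3 lower, without either Con-acrylonitrile-RNA library 13 to 15 higher and 1 lower, without s4U-acrylonitrile-RNA replicate 1 16 higher and 1 lower, without s4U-acrylonitrile-RNA replicate 2 175 higher and 14 lower, without s4U-RNA replicate 1 1248 higher and 614 lower, and without s4U-RNA replicate 2 1925 higher and 1553 lower. Pseudogenes made up 72 of the 232 higher genes, although they are 727 of the 15777 genes, and protein-coding genes 151. Of the 72 pseudogenes 26 met the rule on fragments through the treated libraries alone, as did 5 of the 151. In a fit of protein-coding genes alone, 131 were higher and 45 lower.

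The difference moved with the marked share of a gene. In genes with under 40% marked fragments in s4U-acrylonitrile-RNA (253 genes) the median difference was 0.83 on the log2 scale, with 56 genes higher and none lower. It was 0.50 in genes of 40% to 60%, 0.15 in genes of 70% to 80%, and −0.09 in the 2494 genes of 95% or more. The share and the totals come from the same libraries, so the share was also taken from 1 treated replicate and the difference from a fit without that replicate. Medians then went from 0.88 to −0.01 with the share from replicate 1 and from 0.92 to 0.03 with the share from replicate 2. Within each of 7 bins of GC content the Spearman's rho between difference and share was negative, from −0.11 in the genes below 40% to −0.35 in those of 55% to 60%. Among protein-coding genes alone the medians at the ends were 0.87 and −0.09. Both measures are relative to the library, so whether poorly marked transcripts gained fragments or well marked transcripts lost them cannot be told apart.

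**Figure D5:**
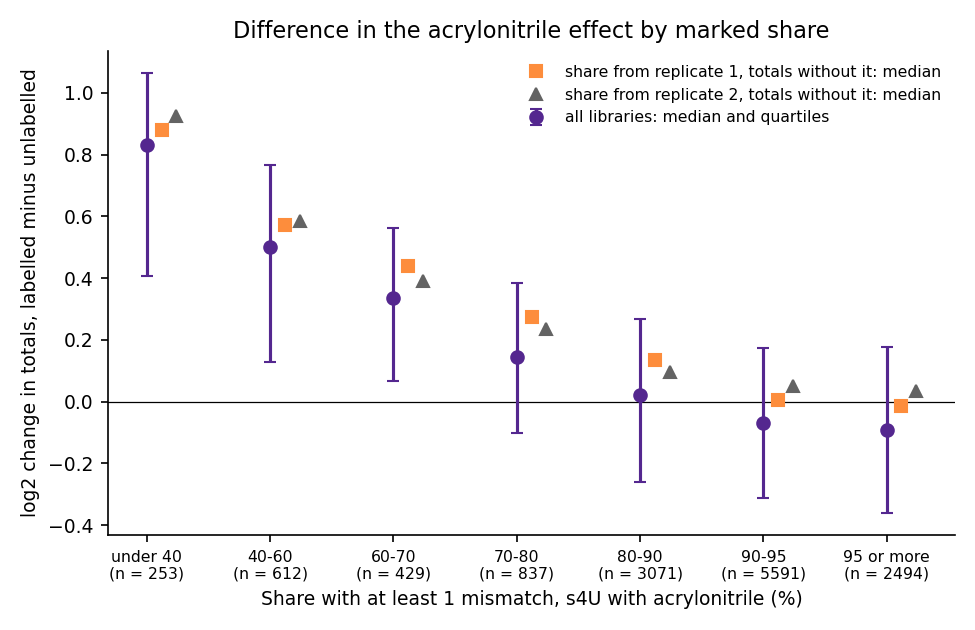
Log2 change in totals with acrylonitrile in labeled minus unlabeled RNA (vertical axis) by marked share in s4U-acrylonitrile-RNA in percent (horizontal axis, with the number of genes per bin). Circles are medians with quartiles, and squares and triangles are medians with the share from 1 treated replicate and the change from the others. The median goes from 0.83 in genes under 40% marked to −0.09 in those of 95% or more.

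The genes given next were mostly named because they passed the test of the difference, so they do not bear on that order. SPARC, a matrix protein, had a difference of 1.59 at a share of 36.7%, and LAMA1 had 1.61 (edgeR's quasi-likelihood test, adjusted p = 0.043). Counts in lists are read beside the 1.28% higher and 0.354% lower of all genes tested. The counts over all genes hung on single libraries, so calls named here may not hold without each library. Of 32 matrix genes 6 passed as higher and none as lower, with a median of 0.70 beside −0.00 for all genes. Of 17 glycolytic genes 5 were higher, LDHB, GPI, PKM, ENO1 and PFKL, with a median of 0.74. The totals of LDHB, a lactate dehydrogenase subunit, fell by 1.22 on the log2 scale in labeled RNA and by 2.80 in unlabeled RNA, where it had 435 and 422 CPM without and 62.6 and 60.2 with acrylonitrile. Of 80 ribosomal protein genes 9 were higher, among them RPS3A, RPS6, RPL4 and RPL19, with differences between 0.91 and 1.41. MSN, a linker of actin to the membrane, was the long-lived transcript that passed, at 1.06, while PRDX5, with a share of 32.8%, was at −0.22 (adjusted p = 0.85). Among lists with high shares the medians were 0.01 for mitosis and spindle genes, −0.03 for short-lived regulators, −0.17 for ZNF genes and −0.69 for the replication-dependent histones, whose median share was 92.7% over 23 genes. None of the 35 histone genes passed in either direction.

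The largest differences upward were again nuclear copies of other genes. By the rule for named genes these were hsa-mir-6723, an entry annotated as a pseudogene within a nuclear copy of the mitochondrial genome (5.20), MTND2P28 (4.39), RPS2P46 (4.33), MTRNR2L12 (4.10) and AC004448.5 (3.83), a lincRNA whose span holds RPS2P46. In hsa-mir-6723 the CPM values were 7.45 and 9.66 in s4U-RNA, 51.9 and 43.5 in s4U-acrylonitrile-RNA, 9.83 and 9.93 in Con-RNA, and 0.912 and 2.21 in Con-acrylonitrile-RNA. The treated libraries were thus high with s4U and low without it. The treated share of MTND2P28 was 97.7% and 96.9%, and that of hsa-mir-6723 96.7% and 97.3%.

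The largest differences downward were in protein-coding genes and 1 overlapping transcript. NFYB, a subunit of the CCAAT-binding factor NF-Y (chr12:104510855-104532067), had 12.8 and 9.10 CPM in s4U-RNA and 4.58 and 6.21 in s4U-acrylonitrile-RNA, but 12.8 and 12.4 in Con-RNA and 36.5 and 35.9 in Con-acrylonitrile-RNA. It thus went down with acrylonitrile in labeled RNA, where GC offsets turned the change from −1.03 to 0.17, and up in unlabeled RNA, a difference of −2.55 ± 0.30 SE (edgeR's quasi-likelihood test, adjusted p = 0.0066). AEBP2, a cofactor of Polycomb repressive complex 2 (chr12:19556979-19873735), had 256 and 254 against 172 and 182 in labeled RNA, where GC offsets turned the change from −0.53 to 0.50, and 88.7 and 88.8 against 254 and 254 in unlabeled RNA, a difference of −2.04. TRHDE, a peptidase gene, had −1.69, and C11orf96 and the overlapping RP11-613D13.4, which can share fragments, had −1.71 and −1.83.

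The number of mismatches in a marked fragment also differed between genes. In s4U-acrylonitrile-RNA the median gene had 3.83 mismatches per marked fragment (quartiles 3.51 and 4.15) and in s4U-RNA 1.27. The number had a Spearman's rho of 0.28 with the uridine content of the transcript and −0.31 with GC content over 12984 genes. It was also lower in genes with low marked shares: the median was 3.08 in genes under 40% marked and 4.22 in genes of 95% or more, and the percentage of marked fragments with at least 2 mismatches was 73.0% and 90.3% in these bins. In s4U-RNA the number had a rho of −0.11 with uridine content. The marked share itself had weaker relations to composition, with a rho of 0.12 with uridine content and −0.15 with GC content.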

How the data were processed

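Fragment counts by number of mismatches were read for 8 libraries from the tables the authors deposited, whole counts per library and strings of counts per gene. The authors trimmed reads with cutadapt, version 1.18 by the submitters' processing notes, collapsed identical reads, removed ribosomal RNA, mapped pairs to hg19 with HISAT2 2.1.0, kept unique alignments, and left out known and newly called polymorphisms and low-quality bases. Mismatches were extracted by the authors' own script, and no source used here names the tool that assigned fragments to genes. The deposited per-gene values are other than plain counts, strings that pair each mismatch number with a fragment count, and were parsed into totals and marked counts. The mismatch type is not named in the tables and was read as T-to-C. Positions count from 0 in the files and from 1 here. The library kit and the mapping were stranded, and no source used here says whether gene assignment used strand.

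Totals were tested over all genes passing edgeR's filter (edgeR 4.0.16, R 4.3.3, TMM, quasi-likelihood test, Benjamini-Hochberg adjustment, threshold 0.05), with group means over all 8 libraries sharing 1 estimate of the spread. Shares were tested as marked and unmarked counts with a term per library, in genes with 20 fragments in each library used. Both tests were run on simulated data in which few genes changed and all libraries varied alike. That simulation does not cover changes as widespread, or spreads as unequal between groups, as in these data. Base composition came from the longest transcript of GENCODE v44lift37 (96.93% of genes matched), and pseudogenes were aligned to parents with Biopython 1.88. A name held by several gene IDs entered a list by the ID with the most fragments. Genes named are those the study names in this experiment and its BCL-2 family, the 10 largest rises and falls of well covered genes, the extremes of the shares among genes with 100 fragments in each library, the 5 largest differences of each sign, and up to 4 genes of each list by size of change or share; named beyond this, and chosen after their values were seen, are all list members that passed the test of the difference, ANKRD30BL, MTRNR2L12, SLC25A6, PPP2R3B, ATF4P3 and MTND4P12. Genes and lists were chosen with earlier results of these data known. Alternatives covered scaling, filters, DESeq2 1.42.0, GC offsets (spline of 6 degrees of freedom), the replicate number as a block, coverage minimums and each library left out.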

Additional observations from a re-analysis of the deposited data

Results flagged for a closer look

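The effect of acrylonitrile differed between labeled and unlabeled RNA by a test of the difference itself in the following results. The change in totals was higher in labeled RNA for 232 genes and lower for 67, and the gain in marked share was larger in labeled RNA for 11817 genes (edgeR's quasi-likelihood test, adjusted p under 0.05). Of all genes tested, 1.28%, 0.354% and 99.7% passed in these directions. The 232 and 67 hung on single libraries.

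Among the genes named for their totals, the difference in log2 change was 8.14 for AC022210.2, 4.39 for MTND2P28, 4.33 for RPS2P46, 3.68 for RP11-632C17__A.1, 2.99 for AC007969.5, 2.95 for RNPS1P1, 2.81 for ZBED1 and 2.30 for AKAP17A. AC022210.2 and ZBED1 met the rule on fragments through the treated libraries alone, so a rise in labeled RNA was fixed for them, and the value of AC022210.2 rests on 1 fragment in s4U-RNA and depends on the prior count of the fit. Among the genes named for their shares it was 2.36 for RPLP0P6, 2.01 for SLCO5A1, 1.67 for PITRM1, 1.67 for SC22CB-1E7.1, 1.61 for LAMA1, 1.06 for MSN and 1.04 for GAMT. Among the genes named for the difference it was 5.20 for hsa-mir-6723, 4.10 for MTRNR2L12, 3.83 for AC004448.5, −1.69 for TRHDE, −1.71 for C11orf96, −1.83 for RP11-613D13.4, −2.04 for AEBP2 and −2.55 for NFYB.

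Outside annotated genes, in fragments that no comparison by gene used, 43.0% carried at least 1 mismatch in s4U-acrylonitrile-RNA. That was above the 28.8% of Con-acrylonitrile-RNA, the 24.4% of Con-RNA and the 18.8% of s4U-RNA, all means of 2 libraries.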

How the results depend on the processing

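Groups of 2 libraries limit these results, and the smallest exact p for a value per library is 0.333. Requiring 100 fragments per library left 8559 genes with a higher marked share and 1 with a lower one, 8562 and 0 for at least 2 mismatches, and 6666 with a larger gain in labeled RNA, since fewer genes were tested. With the 4 s4U libraries alone 1 gene was lower. Counted within genes, library-wide shares differed by 65.4 points (at least 1 mismatch) and 61.9 points (at least 2), and by 38.3 points for at least 3 over all fragments. Among totals, 3131 genes were higher and 3778 lower by over 2-fold, and 3816 were lower with GC offsets. The difference between labeled and unlabeled RNA gave 151 higher and 34 lower genes without composition scaling, 1061 and 273 without a filter, 365 and 105 with DESeq2, 107 lower with GC offsets, and 131 higher in protein-coding genes alone, an alternative added after seeing the data. Leaving out each library gave 4690 to 5470 higher and 4744 to 6668 lower totals, 13 to 1925 higher and 1 to 1553 lower differences, 13239 to 13255 higher and 1 to 4 lower shares, 13261 to 13267 and 1 to 2 for at least 2 mismatches, and 11769 to 11820 larger and 0 to 2 smaller gains. Where this left 1 library in a group, it was assumed to vary like the others. The replicate numbers were not shown to pair libraries (correlation of deviations 0.129 between the labeled groups, with only 2 numbers). With the replicate number as a block, totals gave 5165 higher and 6281 lower genes, differences 306 and 82, and gains 1 smaller, and with GC offsets as well 3818 totals were lower. Totals that changed sign with GC offsets, without and with the block, were BAD (−0.28, −0.26), BAK1 (−0.52, −0.52), BBC3 (−0.14, −0.14), BCL2L12 (−0.25, −0.24), C11orf96 (−1.82, −1.82), TRHDE (0.043, 0.066), NFYB (0.17, 0.17), AEBP2 (0.50, 0.50) and PMAIP1 (0.66, 0.67). With 1 library left out at a time, the total of BAX ran from −0.41 to 0.48, and the differences of PRDX5 from −0.73 to 0.59, SEC61G from −0.96 to 1.43, POLR2L from −0.59 to 0.68 and SNORD3A from −2.75 to 0.90, the upper ends without s4U-RNA replicate 1 and the lower ends without replicate 2. The cause of these changes was not tested. Of 1320 totals of named genes under alternatives, 1235 kept their direction and side of the threshold, as did 1081 of 1241 differences.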
